A study of Homo sapiens with 6 samples.

Results

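NR4A1, NR4A2 and NR4A3 form the NR4A family of orphan nuclear receptors, and their expression was compared between slow-cycling and rapid-cycling breast cancer cells. The 3 genes were taken by symbol from the 58735 genes of the deposited tables, and the transcription factor family column of those tables lists all 3 as NGFIB-like. All libraries came from MDA-MB-231, an established human triple-negative breast cancer cell line, labelled as wild type and grown in DMEM with serum. The cells had been stained with PKH26, a membrane dye that is diluted at each division, and then grown for 12 days. Slow-cycling cells (SCC) were the brightest 1%. Rapid-cycling cells (RCC) were of moderate brightness in the protocol text but are given as low in dye in the sample characteristics. Each of the 2 groups had 3 biological replicates, and both groups went through the same staining, growth and sorting. The data describe a single line in culture.

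NR4A receptors bind DNA and activate transcription without a known physiological hormone, because the pocket that holds the ligand in other nuclear receptors is filled by bulky side chains. Their activity is therefore set largely by how much of the protein is made. They are immediate early genes: growth factors, calcium, cyclic AMP and stress induce them within minutes, through factors such as CREB and MEF2, and their mRNAs are short-lived. The receptors bind the NBRE element as monomers, and NR4A1 and NR4A2 also pair with the retinoid X receptors.

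NR4A2 was higher in SCC, by 4.39-fold, and it was the only one of the 3 genes called in the main test. NR4A1 and NR4A3 also had higher mean levels in SCC, but neither passed the threshold of an adjusted p under 0.05 in edgeR's quasi-likelihood test. Of the 3 genes, 2 passed the filter on low counts and were tested. NR4A3 did not pass it. Among the 15881 genes tested, 268 were called higher in SCC, a share of 1.69%, and 60 were called lower, a share of 0.378%.

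The region before the NR4A3 start is shown because CREB is a classical inducer of this family and the region holds repeated matches to one arm of its palindromic element. The NR4A1 region is shown beside it for comparison. Both are RefSeq sequences on GRCh38.p14, plus strand, and end at the last base before the gene as annotated in GENCODE release 29. Capitals mark matches to the CRE half-site TGACG, or CGTCA where it lies on the other strand.

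NR4A3, chr9:99821635-99821854: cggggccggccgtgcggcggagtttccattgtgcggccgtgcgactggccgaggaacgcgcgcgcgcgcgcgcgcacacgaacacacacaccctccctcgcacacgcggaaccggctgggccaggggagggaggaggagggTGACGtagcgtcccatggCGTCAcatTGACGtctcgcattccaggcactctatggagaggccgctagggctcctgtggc
NR4A1, chr12:52022582-52022831: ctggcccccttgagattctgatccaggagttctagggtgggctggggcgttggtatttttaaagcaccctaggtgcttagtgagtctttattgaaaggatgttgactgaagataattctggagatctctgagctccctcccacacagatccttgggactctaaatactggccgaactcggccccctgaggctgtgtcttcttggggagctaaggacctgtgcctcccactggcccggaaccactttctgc

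In the 250 bases before the RefSeq start of NR4A3, TGACG was found 4 times on both strands together, with first bases at -109, -91, -83 and -25. The match at -25 lies in the last 30 bases of that window, which are inside the annotated gene and are not shown. At least 1 match was present in 21.2% of 35116 RefSeq promoter windows of this length, and 4 or more in 0.236%. The NR4A3 window was 68.0% GC, whereas these shares cover windows of any GC content. The region is shown for its matches, and their rarity was not tested. The full palindrome TGACGTCA, found in 1.65% of windows, was absent from the NR4A3 window, as was the NBRE AAAGGTCA, found in 1.05%. Neither of the windows of NR4A1 held TGACG, TGACGTCA or AAAGGTCA. The first is the window shown, and the other, at 52037465 to 52037714 on chromosome 12, lies inside the annotated gene. The annotation lists 19 distinct transcript starts for NR4A1 and 2 for NR4A3. Most NR4A1 starts were thus not scanned, and the windows do not describe all of its promoters. NR4A2 has no entry in the promoter table used. A match describes the letters of a window and shows no binding.

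NR4A2 (ENSG00000153234), also known as NURR1, is best known for the development and upkeep of dopamine neurons. It lies on chromosome 2 at 156324432 to 156342348 on the minus strand. Its counts were 328, 249 and 210 in SCC replicates 1 to 3 and 68, 53 and 43 in RCC replicates 1 to 3. Every SCC library was above every RCC library. As CPM, counts scaled to a common library size with totals adjusted by edgeR's TMM factors, the levels were 12.2, 12.7 and 9.96 in SCC against 2.96, 2.53 and 2.41 in RCC. The lowest SCC library was 7.0 CPM above the highest RCC library, a gap wider than the spread within either group.

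The mean NR4A2 level was 11.6 ± 1.46 CPM (SD, n = 3) in SCC and 2.63 ± 0.29 CPM (SD, n = 3) in RCC. The log2 fold change was 2.13 (SE 0.16), with an adjusted p of 4.1e-05 in edgeR's quasi-likelihood test. NR4A2 ranked 30 by log2 fold change and 16 by p among the 15881 tested genes. Non-overlapping groups with SCC higher were found for 14.4% of tested genes, so the separation alone is common in these libraries. An exact two-sided permutation test of its CPM gave p = 0.1, the smallest that 3 against 3 libraries allow. The call held in 18 of 18 alternative fits, with log2 fold changes between 1.23 and 2.22. The lowest came from log2(FPKM + 1), a scale that compresses changes of low genes.

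**Figure D1:**
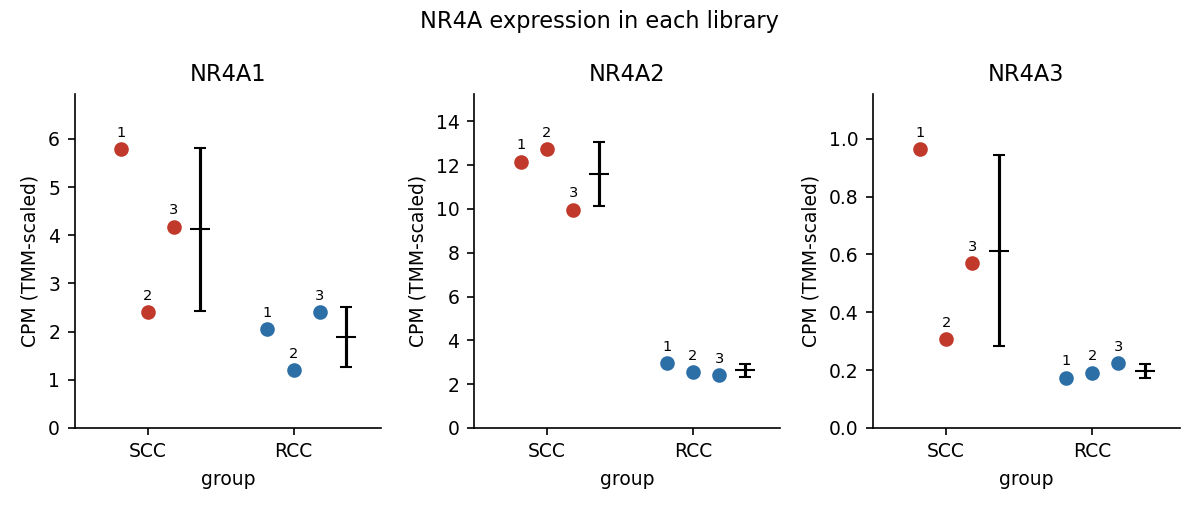
CPM of NR4A1, NR4A2 and NR4A3 in the 3 SCC and 3 RCC libraries, with points for single libraries and the group mean and SD. NR4A2 lies between 9.96 and 12.7 CPM in SCC and between 2.41 and 2.96 CPM in RCC, whereas the NR4A1 groups meet at 2.40 CPM.

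NR4A1 (ENSG00000123358), also known as NUR77, is an immediate early gene of many tissues with described roles in T-cell selection and in apoptosis. It lies on chromosome 12 at 52022832 to 52059507 on the plus strand. Its counts were 156, 47 and 88 in SCC and 47, 25 and 43 in RCC. The CPM values were 5.79, 2.40 and 4.17 in SCC and 2.04, 1.19 and 2.41 in RCC. SCC replicates 1 and 3 were above all RCC libraries, and SCC replicate 2 was level with RCC replicate 3.

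The mean NR4A1 level was 4.12 ± 1.69 CPM (SD, n = 3) in SCC and 1.88 ± 0.62 CPM (SD, n = 3) in RCC. The log2 fold change was 1.15 (SE 0.34), a 2.23-fold difference, with an adjusted p of 0.107 in edgeR's quasi-likelihood test. The exact permutation p was 0.2. The threshold was not reached with the test as designed, but 5 of the 16 alternative fits that tested the gene called it. These were DESeq2 (adjusted p = 0.0491), edgeR on every gene with at least 1 count (adjusted p = 1.3e-04) and the fit without SCC replicate 2 (log2 fold change 1.40, adjusted p = 0.0171). The others took the replicate number as a block, without (adjusted p = 0.0246) and with (adjusted p = 0.0137) an offset for GC content. The lowest log2 fold change of the 16 was 0.30, on log2(FPKM + 1) without a filter (adjusted p = 0.604, limma). In the fit of every gene with at least 1 count the NR4A1 SE was 0.24, against 0.34 in the main fit. That fit also gave NR4A2 an adjusted p of 5.7e-30, against 4.1e-05 in the main fit. Its adjusted p values are thus not comparable with those of the other fits.

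The spread of NR4A1 within groups was wider than counting error. Its coefficient of variation was 41.1% in SCC, where counting alone would give 10.2%, and 33.0% in RCC, where counting alone would give 16.2%. For NR4A2 the same values were 12.6% against 6.17% in SCC and 11.0% against 13.5% in RCC. The replicates of NR4A2 were thus closer to one another than those of NR4A1 in both groups. SCC replicate 1, the library with the most NR4A1, also stood apart in genes of like base composition. The GC content of NR4A1 was 59.8%, and the 1753 tested genes within 2 percentage points of it had a median log2 deviation of 0.27 in SCC replicate 1, against -0.10 to 0.01 in the other libraries. Near the GC content of NR4A2, 47.9%, no library deviated by more than 0.02. With an offset for GC content the NR4A1 log2 fold change was 0.96 (adjusted p = 0.0593), and without SCC replicate 1 it was 0.82 (adjusted p = 0.118), both from edgeR.

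NR4A3 (ENSG00000119508), also known as NOR1, is the receptor fused to EWSR1 in extraskeletal myxoid chondrosarcoma. It lies on chromosome 9 at 99821855 to 99866891 on the plus strand. Its counts were 26, 6 and 12 in SCC and 4, 4 and 4 in RCC. The exact 95% Poisson interval was 17.0 to 38.1 for the count of 26, 2.20 to 13.1 for the count of 6, and 1.09 to 10.2 for a count of 4, which covers counting error only. The interval for the count of 12 was 6.20 to 21.0. The intervals of SCC replicates 2 and 3 thus overlapped that of the RCC libraries, and that of SCC replicate 1 did not.

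The CPM values of NR4A3 were 0.964, 0.307 and 0.569 in SCC and 0.174, 0.191 and 0.224 in RCC. The groups did not overlap, with 0.083 CPM between the nearest libraries. The share of 14.4% for such separation covers genes of the main fit only. No share was computed for genes with counts as low as these. Because the gene missed the main filter, it was tested in edgeR on every gene with at least 1 count, where its log2 fold change was 1.66 (SE 0.64), with an adjusted p of 0.159. That fit tested 37596 genes and called 2.65% of them higher in SCC. Without SCC replicate 2 the same fit put it at 1.97 on the log2 scale, past the threshold (adjusted p = 0.0402), whereas with the main filter, which NR4A3 then passed, it was at 1.95 and missed it (adjusted p = 0.0608). The exact permutation p of the CPM values was 0.1.

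Within SCC, NR4A1 and NR4A3 shared an order of libraries, with replicate 1 highest and replicate 2 lowest, whereas NR4A2 was highest in replicate 2. Pearson's r of log2 CPM over the 6 libraries was 0.92 for NR4A1 with NR4A3, 0.73 for NR4A1 with NR4A2 and 0.79 for NR4A2 with NR4A3. These values describe libraries that fall into 2 groups and share depth and composition.

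Levels of different genes are compared as FPKM, which divides the count by gene length. In SCC, NR4A2 stood at 2.91 ± 0.36 FPKM (SD, n = 3), NR4A1 at 0.560 ± 0.227 and NR4A3 at 0.0962 ± 0.0513. In RCC the levels were 0.661 ± 0.070, 0.257 ± 0.084 and 0.0310 ± 0.0040 FPKM in the same order. NR4A2 was the most abundant member in all 6 libraries and NR4A3 the least. All 3 were low: these are mean levels over bulk RNA, in which fewer expressing cells and less RNA per cell cannot be told apart.

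The summed FPKM of the family was 3.95, 3.57 and 3.16 in SCC and 1.04, 0.836 and 0.967 in RCC. The means were 3.56 ± 0.39 and 0.949 ± 0.105 (SD, n = 3), a ratio of 3.75, with an exact permutation p of 0.1. The family total in SCC was thus mostly NR4A2. Its share was 76.4%, 89.5% and 79.1% in SCC and 70.8%, 76.7% and 62.4% in RCC, with overlapping groups (exact permutation p = 0.2, Benjamini-Hochberg adjusted over the 3 shares 0.3). The NR4A1 share was 15.7 ± 5.68% in SCC and 26.7 ± 7.13% in RCC, with the same p values. The NR4A3 share was 2.67 ± 1.24% and 3.30 ± 0.59% (exact permutation p = 0.7, adjusted 0.7). A change of proportions between the groups was not detectable with these libraries.

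**Figure D2:**
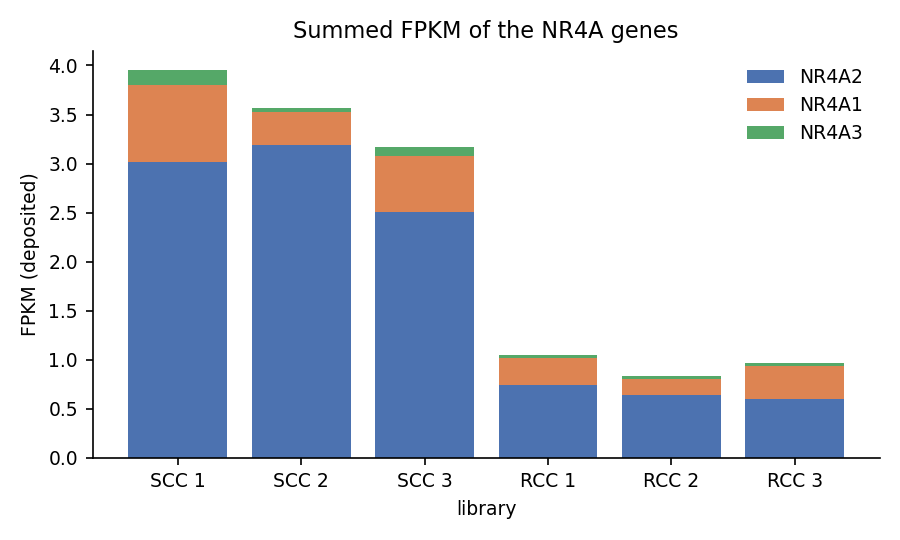
Deposited FPKM of NR4A2, NR4A1 and NR4A3, stacked for each library. The 3 SCC libraries sum to between 3.16 and 3.95 FPKM and the 3 RCC libraries to between 0.836 and 1.04 FPKM, and NR4A2 is the largest layer in every library.

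The family was set against the other nuclear receptors, the hormone and orphan receptors that share the same DNA-binding fold. Of 48 human nuclear receptors including the NR4A genes, 32 were tested. Of these, 2 (6.25%) were called, both higher in SCC, beside 1.69% of all tested genes. These were NR4A2 and NR1D1, which encodes REV-ERB alpha, a repressor of the circadian clock. NR1D1 levels were 36.1, 29.6 and 23.0 CPM in SCC and 8.13, 8.22 and 6.82 CPM in RCC, which differed by 1.93 on the log2 scale (SE 0.16, adjusted p = 1.1e-04, edgeR). NR1D1 overlaps THRA on the opposite strand, and reads of the pair cannot be told apart without strand. The difference for THRA was 0.12 on the log2 scale (adjusted p = 0.623).

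By mean FPKM, NR4A2 ranked 19 of 48 nuclear receptors in SCC and 24 in RCC. In SCC its level of 2.91 ± 0.36 was next to those of THRA, at 3.13 ± 0.62, and NR1H3, at 2.44 ± 0.19. Its mean ± SD overlapped that of either neighbour. NR4A1 ranked 25 in both groups. NR4A3 ranked 32 in SCC and 38 in RCC. NR2F1, ESRRA and NR2F6 were the 3 most abundant receptors in each group. The median log2 fold change of the 30 other tested receptors was 0.15, beside 0.00 over all tested genes.

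**Figure D3:**
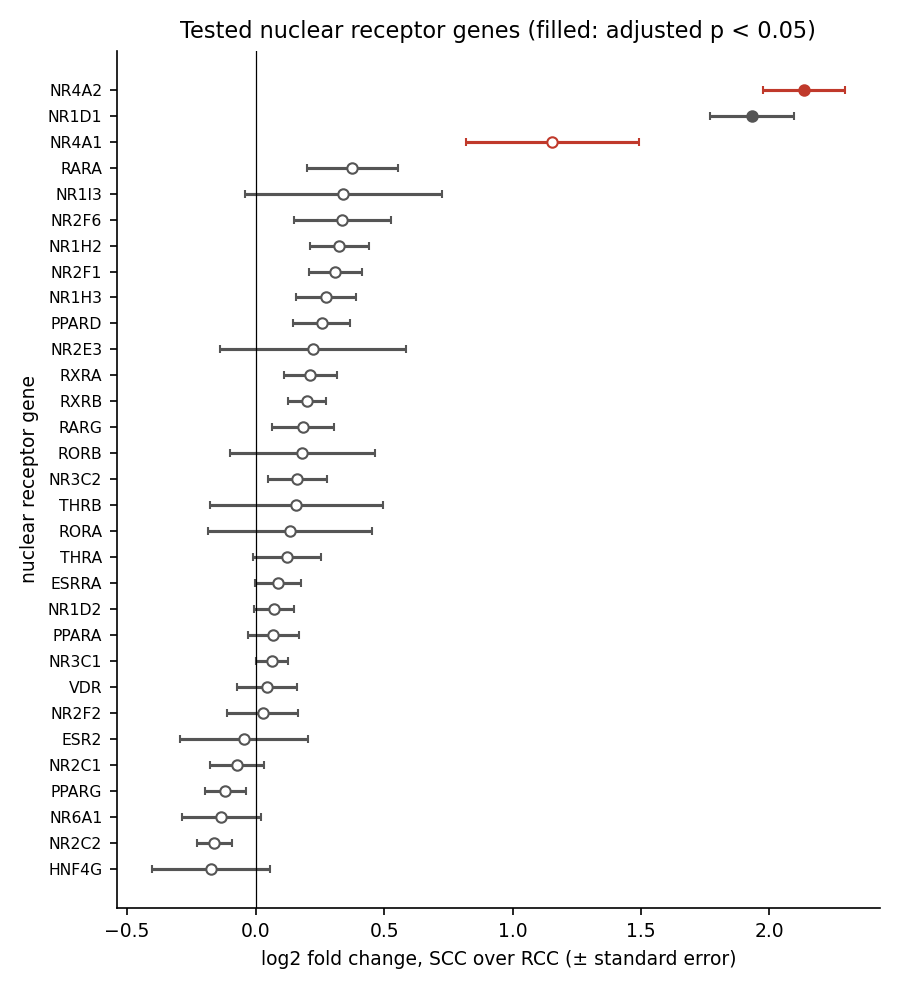
Log2 fold change, SCC over RCC, of the tested nuclear receptors reported here, with standard errors, in edgeR's main fit. NR4A2 (2.13) and NR1D1 (1.93) have the highest log2 fold changes, and NR4A1 (1.15) is next.

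The other genes of the pathway were described by role. Of 21 genes for partners and cofactors of NR4A proteins, 20 were tested, with a median log2 fold change of 0.07. Of the tested genes 1 was called higher, beside 1.69% of all tested genes, and none lower. RXRA and RXRB, which encode heterodimer partners of NR4A1 and NR4A2, had log2 fold changes of 0.21 (adjusted p = 0.278) and 0.20 (adjusted p = 0.188). RXRG was at 0 counts in all libraries. The called gene was SMAD7, the inhibitory SMAD of the TGF-beta pathway, at 26.3 ± 4.32 CPM in SCC and 13.1 ± 1.11 CPM in RCC (log2 fold change 1.01, SE 0.13, adjusted p = 0.0017, edgeR).

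Of 27 genes for inputs to NR4A transcription, such as CREB, its CRTC coactivators, protein kinase A, MEF2 factors and the histone deacetylases that restrain them, 26 were tested and none was called in edgeR's main fit. At an unadjusted p under 0.05, 6 were higher and 1 was lower. Alternatives called between 0 and 5 of them higher: 8 of 18 called at least 1, among them DESeq2 with 2 and edgeR on every gene with at least 1 count with 5. Their median log2 fold change was 0.00. MEF2D was at 0.43 (adjusted p = 0.0514), HDAC5 at 0.42 (adjusted p = 0.0819) and CREB1 at -0.24 (adjusted p = 0.129).

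Genes commonly induced through CREB, as NR4A genes are, included several of the strongest calls. Of 20 listed, 18 were tested and 8 were called higher, beside 1.69% of all tested genes, with none lower and a median log2 fold change of 0.40. The 4 with the smallest p were FOS, FOSB, EGR1 and JUNB, immediate early transcription factors. FOSB rose from 3.55 ± 0.26 to 110 ± 21.7 CPM, a log2 fold change of 4.95, and FOS from 12.2 ± 0.28 to 106 ± 10.4 CPM, a log2 fold change of 3.12. EGR1 rose by 1.88 and JUNB by 1.80 on the log2 scale. The list was not uniform, and log2 fold changes of its tested genes ran from -0.13 to 4.95. Genes not called included CREM, PDE4B, PDE4D, BDNF and AREG. The NR4A2 log2 fold change of 2.13 lay between those of FOS and EGR1. The list was chosen with results of these data known, so its count is no independent evidence of its direction. FOSB overlaps ERCC1 and JUNB overlaps HOOK2 on the opposite strand, which leaves their values uncertain without strand.

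SIK1, a kinase that CREB induces and that restrains the CRTC coactivators, was not tested, with 0.297, 0.307 and 3.23 CPM in SCC and 0.0869, 0.143 and 0.112 CPM in RCC. Most counts of this sequence were assigned to its near-identical copy SIK1B, chosen for this reason after its values were seen. SIK1B stood at 20.0 ± 3.44 CPM in SCC and 9.25 ± 3.10 CPM in RCC (log2 fold change 1.12, SE 0.20, adjusted p = 0.0177, edgeR). How counts were divided between the copies is uncertain.

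Of 33 genes linked to NR4A receptors as targets in other work, 18 were tested, with a median log2 fold change of 0.15. Of the tested genes 3 were called higher, beside 1.69% of all tested genes, and none lower. This list too was chosen with results of these data known, so its count is no independent evidence. NFKBIA, the inhibitor of NF-kB, stood at 141 ± 8.24 CPM in SCC and 50.9 ± 1.00 in RCC (log2 fold change 1.47, adjusted p = 1.5e-06). PDK4, which limits the entry of pyruvate into mitochondrial oxidation, stood at 9.75 ± 1.72 and 3.05 ± 0.15 CPM (1.67, adjusted p = 3.7e-04). ITGB4, the integrin beta 4 subunit, stood at 154 ± 33.6 and 78.3 ± 1.52 CPM (0.98, adjusted p = 0.0017). ITGB4 overlaps GALK1 on the opposite strand. POMC and CYP17A1, targets in pituitary and steroid-producing tissue, were at 0 counts in all libraries.

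**Figure D4:**
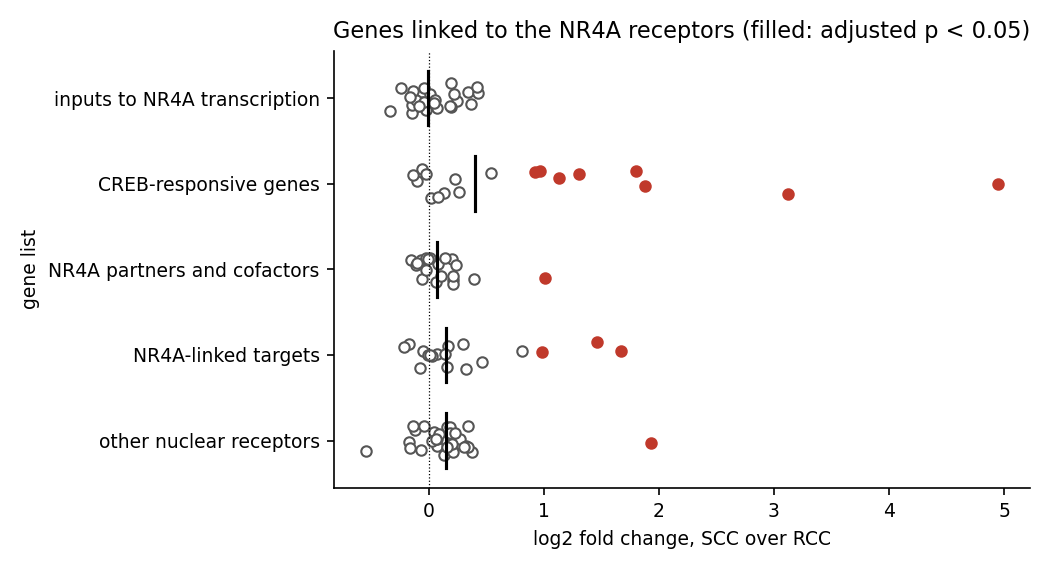
Log2 fold changes of the tested genes in the 5 gene lists, SCC over RCC, with called genes marked. Of the CREB-responsive genes 8 of 18 were called higher, against 3 of 18 NR4A-linked targets and 1 of 20 partners and cofactors. The counts were 1 of 30 other nuclear receptors and 0 of 26 inputs, beside 1.69% of all tested genes.

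The tested genes whose log2 CPM followed each NR4A gene most closely over the 6 libraries were found by Pearson's r. For NR4A2 they included MYLIP (0.999), RBM22, ADM (each 0.998) and NDRG1 (0.996). Of these, MYLIP, ADM and NDRG1 were called higher in SCC. ADM, which encodes the vasodilator peptide adrenomedullin, differed by 1.35 on the log2 scale (adjusted p = 3.4e-05), and MYLIP, a ubiquitin ligase that targets the LDL receptor, by 0.81 (adjusted p = 4.0e-04). For NR4A1 they were PTGES (0.994), ADAMTS13 (0.992), CDKN2C, TOR1AIP2 (each 0.991) and BRF2 (0.989). For NR4A3 they were BHLHE41, PDLIM1 (each 0.997), GTF3C5 (0.996), WNT7B (0.995) and ITPRIP (0.994). None of the 10 genes closest to NR4A1 or NR4A3 was called in the main fit, but ITPRIP was called in 7 of 18 alternatives, WNT7B in 2 and TOR1AIP2 in 1, as was RBM22 in 3. With 6 libraries in 2 groups, high values of r arise for many genes.

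Within 250 kb of the 3 starts the annotation holds 35 other genes, of which 11 were tested and 0 were called in edgeR's main fit. At an unadjusted p under 0.05 there were 2, ATG101 and KRT7, both higher in SCC. ATG101, 46.4 kb from the NR4A1 start and an autophagy initiation factor, stood at a log2 fold change of 0.36 (adjusted p = 0.0982). It was called in the fit of every gene with at least 1 count (adjusted p = 0.0266) and without SCC replicate 2 (adjusted p = 0.0467). KRT7, a keratin of simple epithelia, stood at 0.29 (adjusted p = 0.132) and was called in the same fit (adjusted p = 0.0053), without SCC replicate 2 (adjusted p = 0.0466) and without SCC replicate 1 (adjusted p = 0.0205). GPD2, the only tested neighbour of NR4A2, stood at -0.14 (adjusted p = 0.289), and STX17, that of NR4A3, at -0.12 (adjusted p = 0.511). AC025259.3 overlaps the 3′ end of NR4A1 on the opposite strand and had 2 counts in all libraries together.

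The 3 transcripts also differ in AUUUA pentamers, elements that can mark short-lived mRNAs. In the longest 3′ UTR among the principal transcripts of each gene there were 10 in NR4A3, 4 in NR4A2 and 3 in NR4A1. Of 18905 protein-coding genes, 10.7% have at least 10, 30.3% at least 4 and 37.4% at least 3. The NR4A3 3′ UTR has 3024 bases and that of NR4A1 563, beside a median of 876.

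Summed counts per library ranged from 17655855 to 27831824, and SCC replicate 1 was the deepest. The share of counts from mitochondrial genes was 4.56 ± 0.17% in SCC and 3.89 ± 0.11% in RCC (exact permutation p = 0.1). It moved with the NR4A2 difference between the groups, and its part in that result was not tested. Of the mesenchymal and basal markers listed for the line, VIM stood at 153 FPKM in SCC and 150 in RCC, and CD44 at 35.4 and 34.9. Their log2 fold changes were 0.04 (adjusted p = 0.777) and 0.03 (adjusted p = 0.817, both edgeR). The basal keratins of that list were absent or near the floor. KRT5 had 0 counts. KRT14 had 35 counts in all, at 0.816, 0.307 and 0.237 CPM in SCC and 0.0435, 0 and 0.0559 in RCC. ESR1 stood at 0.0251 FPKM in SCC and 0.0331 in RCC. Summed FPKM of 10 leukocyte markers spanned 0.318 to 1.38 in SCC libraries and 0.354 to 0.711 in RCC libraries, with 1 tested and 0 called. The list did not move as one. ITGAM, an integrin of myeloid cells, was at 0.964, 0.358 and 0.332 CPM in SCC and 0.130, 0.143 and 0.112 CPM in RCC. The groups did not overlap, on 48 counts in all, and no share of such genes was computed below the main filter. LYZ, which encodes lysozyme, was at 0.482 CPM in SCC replicate 1 and at 0 in the other SCC libraries. The T-cell and B-cell genes CD3E and MS4A1 had 1 and 2 counts in all libraries together. The tested gene, PTPRC, was ordered across the SCC libraries as NR4A1 and NR4A3 were, at a log2 fold change of 1.84 (adjusted p = 0.206), and the part of these markers in the NR4A values was not tested. Fibroblast markers summed to 1.22 to 1.67 in SCC and 0.913 to 1.22 in RCC, endothelial markers to 0.566 to 0.643 and 0.548 to 0.656, and luminal markers to 172 to 199 and 151 to 161, with 0 called in edgeR's main fit.

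**Figure D5:**
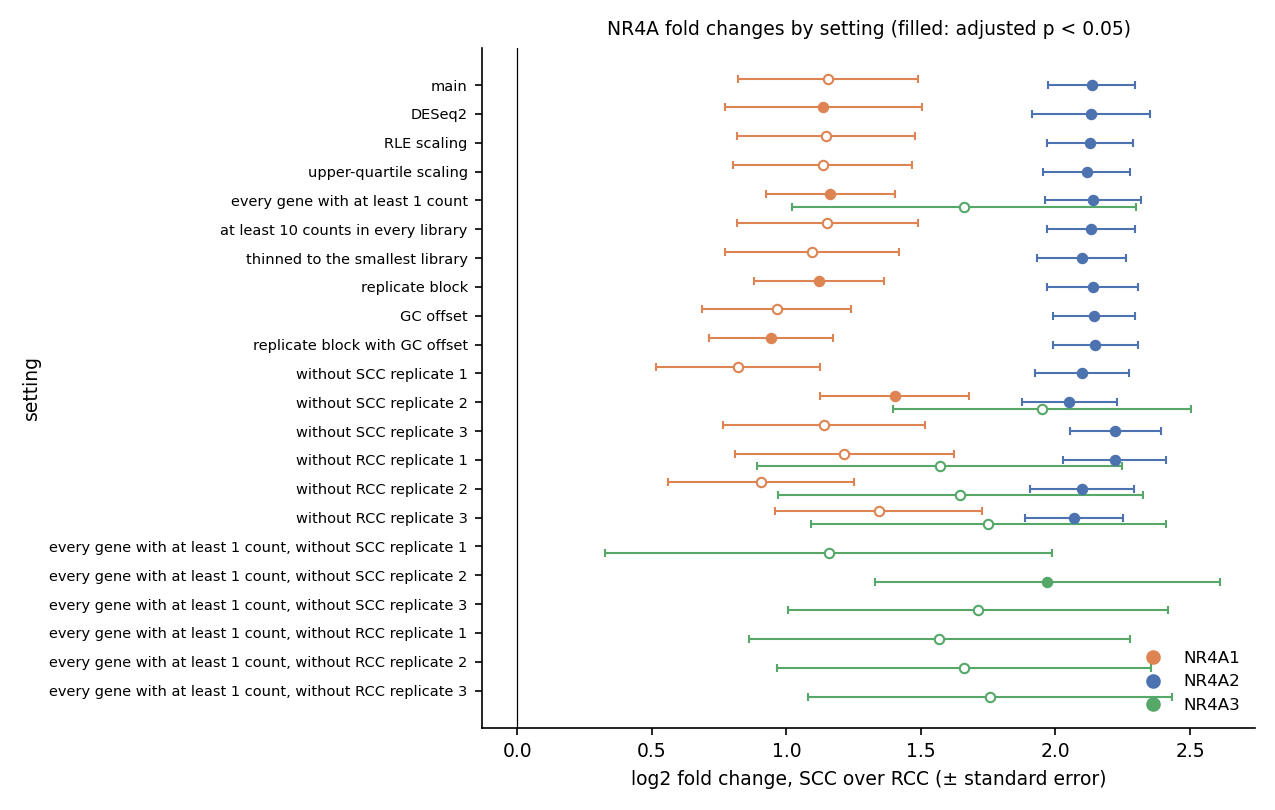
Log2 fold changes of NR4A1, NR4A2 and NR4A3 under the alternative fits on counts, SCC over RCC, with called values marked. NR4A2 stays between 2.05 and 2.22 and is called in each fit shown, whereas NR4A1 runs from 0.82 to 1.40 and is called in some.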

How the data were processed

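RNA-seq was analysed in 6 MDA-MB-231 libraries, 3 SCC and 3 RCC. The deposited gene counts are raw whole numbers, and HISAT2 2.0.5 and featureCounts 1.5.0-p3 are named in the submitters' processing notes. The genome build, read filters and use of strand are not given in the sources used here. Gene positions matched GENCODE release 29 (GRCh38). The deposited FPKM values equalled the count divided by gene length and by 1 constant per library.

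Counts were filtered (filterByExpr, minimum count 10), TMM-scaled and tested with edgeR 4.0.16 (R 4.3.3; quasi-likelihood F test, two-sided, Benjamini-Hochberg over all tested genes, called under 0.05). The fit was tested on simulated data. NR4A3 missed the filter, so its value is from the fit of every gene with at least 1 count. Single values were compared by exact permutation tests. Alternatives used DESeq2 1.42.0, limma 3.58.1 on log2 FPKM, other scalings and filters, thinning, a GC offset (longest transcript), a replicate block and each library left out. GC content was known for 15874 of the tested genes.

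Named genes were the 3 members, the called genes of each list (or the 4 with the smallest p where over 6 were called), the 5 closest by Pearson's r and the tested neighbours; PTPRC, SIK1B and other genes given for a role were chosen after their values were seen. Of the genes tested, 2 that these rules or lists take are not reported by name here. The members and lists were chosen with earlier results of these data known.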

Additional observations from a re-analysis of the deposited data

How the results depend on the processing

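The NR4A2 call held in 18 of 18 alternatives, with log2 fold changes of 2.05 to 2.22 when each library was left out. NR4A1 passed the threshold with DESeq2 (1.14), with every gene of at least 1 count (1.16), with the replicate block (1.12) and with the replicate block with GC offset (0.94), and ranged from 0.82 to 1.40 when libraries were left out. NR4A3 ranged from 1.16 to 1.97 when libraries were left out, in fits added after seeing the data, and passed the threshold without SCC replicate 2 (adjusted p of 0.0402). The planned fit without that library, with the main filter, did not (1.95, 0.0608). The cause was not tested. The labels do not state that replicate numbers pair samples, so the numbers were not taken as pairs. Over the tested genes, same-numbered SCC and RCC libraries did not deviate together (r of -0.009, 0.025 and -0.079). No r of differently numbered libraries was set beside these. For NR4A1 the block lowered the SE from 0.34 to 0.24.

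Genes called higher numbered 995 with at least 1 count, 130 on log2(FPKM + 1), 117 on log2(FPKM + 0.1), 48 without the FPKM filter, 523 with the GC offset, 621 with block and GC offset, and 99 to 642 with libraries left out. Genes called lower numbered 135 (DESeq2), 315, 36, 34 and 1 in the same filter and FPKM settings, 106 with the block, 245 with the GC offset, 431 with both, and 8 to 343 with libraries left out. Called members of lists were as follows. With at least 1 count, 5 other receptors, 2 partners, 5 inputs and 5 targets were higher. On log2(FPKM + 1) without a filter there were 0 partners, 5 CREB-responsive genes and 1 target. With the GC offset there were 2 other receptors and 1 input. Inputs numbered 2 with DESeq2, 1 with RLE scaling, 1 with the block and 2 with block and GC offset. With libraries left out, 1 to 3 other receptors and 0 to 3 inputs were higher, and 0 to 1 of each lower. The NR4A3 share difference went from -0.63 to 0.024 percentage points without SCC replicate 2, and ranged from -1.20 to 0.024 with libraries left out. Direction reversed for KRT87P (-0.089 with the GC offset, -0.10 with block and GC offset), ACVRL1 (-0.14 without SCC replicate 1, up to 0.72 without RCC replicate 1) and GTF3C5 (-0.028 and -0.028 with the GC offset without and with the block). PDK4, SMAD7 and ITGB4 lost the call on log2(FPKM + 1) without a filter (adjusted p of 0.0948, 0.128 and 0.151), and NDRG1 without RCC replicate 3 (0.0555). NR4A3 had 12 counts in RCC, and its coefficient of variation in SCC was 54.0%, where counting alone would give 26.1%.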
